A study of Mus musculus with 75 samples.

Results

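RNA bound to tagged ribosomes was compared with total RNA of the same cultures in CD4 effector T cells stimulated with anti-CD3/CD28 beads. The comparison took the 5 stimulated IP libraries and the 5 stimulated Input libraries, 10 of the 75 libraries of the series, chosen by their labels and paired by culture number. The cells were CD4+CD25- T cells from spleen and lymph nodes of mice with a B6N.129-Rpl22tm1.1Psam/J parent and, for the Cre, a B6.Cg-Tg(Cd4-cre)1Cwi/BfluJ parent. In such a cross the Cd4-driven Cre recombinase switches on a hemagglutinin-tagged form of the ribosomal protein Rpl22, in CD4 cells and in other cells that have passed through a Cd4-expressing stage. IP is the RNA recovered with an antibody to that tag, and Input is RNA of the same lysate before the precipitation. The labels give a cross of this kind, with the tag and the Cre, for all groups of this assay, called RiboTag below. A second assay, SPEED, is used further below for comparison. Its cells came from other mice (B6.SJL-PtprcaPepcb/BoyJ) and were untreated, stimulated, stimulated with regulatory T cells (Tregs) or treated with HHT. Each of the 5 RiboTag mice gave a stimulated culture, a culture with beads and Tregs, and a culture rested with IL7. Each of these cultures gave an IP and an Input library. Per the labels' protocols, control cultures held more effector cells to match total cell density, or in some cases effector cells of Foxp3YFP-Cre mice. The labels do not say which cultures held such cells, or that they were tagged, and their part in the results was not tested. Whether the added Tregs carried the tag is not given here, and their part in the ratios was not tested either. Nor do the labels give the age of the mice or the time in culture.

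Ribosomes read mRNA in the cytosol, and an mRNA in active translation usually carries several of them as a polysome. T cells that receive a signal through the T cell receptor and CD28 grow and raise protein synthesis. Precipitation of a tagged ribosomal protein keeps RNA that carries cytosolic ribosomes, whether or not they are moving, and leaves behind RNA without such ribosomes, for example RNA in the nucleus or inside mitochondria. The ratio of IP to Input is therefore a measure of ribosome association relative to the average RNA of the library. Because each library is scaled to a common total, a change shared by all RNA does not appear in it, and fewer cells of a type cannot be told apart from less RNA per cell. The tables list genes by Ensembl identifier, and the reference tables used here paired none of these with a gene symbol. Genes are therefore described by level, direction and behaviour in other libraries, and only 4 are given by identifier. Whether the cells express the defining markers of CD4 T cells could not be checked for the same reason.

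The stimulated IP libraries held 2159988 to 2505350 gene counts and the stimulated Input libraries 1658481 to 2689657. Genes with at least 1 count numbered 13770 to 14191 per IP library and 14001 to 14792 per Input library. The most abundant gene took 0.107% to 0.121% of the counts in IP and 0.111% to 0.146% in Input. Levels are given as CPM, the counts of a gene scaled to a library of fixed size. Across the 6940 genes with a mean log2 CPM of 5 or more, called well measured below, each stimulated IP library had a mean correlation of 0.935 to 0.959 with the other 4, and each Input library 0.948 to 0.959. Input of culture 1 lay at the end of the Input range in depth (1658481 counts), genes found (14001) and share of the most abundant gene (0.146%). The other stimulated Input libraries held 2054235 to 2689657 counts.

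Of 10751 genes tested in stimulated cells, 466 were enriched in IP over Input and 383 were depleted. The test was edgeR's quasi-likelihood test with the culture as a block, two-sided, at a Benjamini-Hochberg adjusted p under 0.05. These calls were 7.9% of the genes tested, 4.33% higher and 3.56% lower. The rises were small and the falls larger. Genes higher in IP had a median log2 ratio of 0.29, a 1.22-fold difference, with single genes between 0.15 and 0.87, and none reached 2-fold. Genes lower in IP had a median log2 ratio of -0.62, a 1.54-fold difference, and 78 of them fell at least 2-fold, 32 at least 4-fold and 26 at least 8-fold. The direction was the same in 5 of 5 cultures for 445 of the genes called higher and 344 of those called lower, and 2482 of all genes tested (23.1%) had the same sign in 5 of 5. The IP and Input values did not overlap for 192 of the genes called higher and 171 of those called lower, against 586 of all genes tested (5.45%). Without the culture as a block the same test called 105 genes, 22 higher and 83 lower. Leaving out 1 mouse gave 465, 191, 507, 198 and 305 calls without mouse 1, 2, 3, 4 and 5, of which 188, 41, 193, 45 and 103 were higher.

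**Figure D1:**
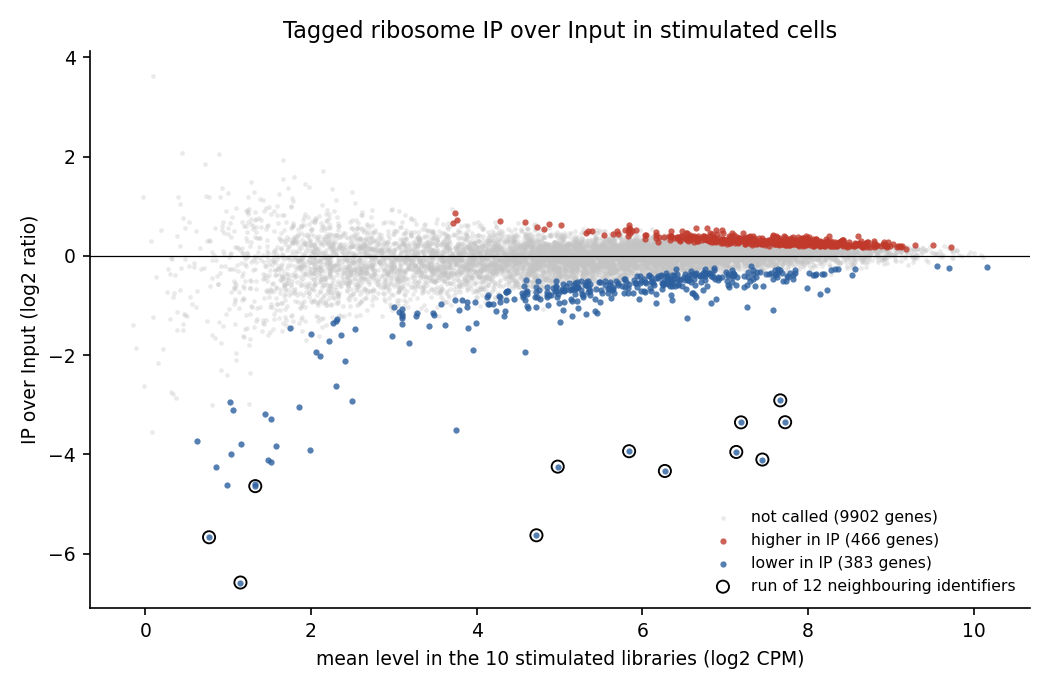
Each point is 1 of the 10751 genes tested, with its mean level over the 10 stimulated libraries (log2 CPM) on the horizontal axis and its fitted IP over Input ratio (log2) on the vertical axis. Red and blue points passed the test (466 higher in IP, 383 lower), grey points did not, and rings mark 12 genes with neighbouring identifiers; the rises form a thin band at high level, and the 9 rings at a level of 4 or more lie far below the other genes of their level.

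The direction of the difference followed the level of the RNA. Among the 846 genes with a mean level of at least 256 CPM, 18.4% were higher and 1.89% lower in IP, and the median log2 ratio was 0.11. Between 128 and 256 CPM, 11% of 1738 genes were higher and 3.45% lower, with a median of 0.09. The median was -0.02 for the 1967 genes between 32 and 64 CPM, of which 0.864% were higher and 4.58% lower. Below 4 CPM none of 561 genes was called higher, 3.39% were called lower and the median was -0.21. The spread of the log2 ratio between genes was wider at low level, with an SD of 1.07 below 4 CPM and 0.13 at 256 CPM or more. Genes called higher had a median level of 202 CPM and genes called lower 61.6 CPM. Together the genes called higher held 11.1% ± 0.205 of the counts of tested genes in IP and 9.43% ± 0.147 in Input (SD, n = 5 cultures). Those called lower held 2.64% ± 0.106 of the counts in IP and 4.17% ± 0.0678 in Input. These shares describe the genes that were called and are no further support for the calls.

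Of the genes called higher with an average of 4 or more on the log2 CPM scale and a rise in every culture, the largest difference was that of ENSMUSG00000027371. Its level was 28.9, 18.9, 19.4, 23.4 and 30.8 CPM in IP of cultures 1 to 5, against 15.8, 14.8, 14, 12.3 and 16.5 CPM in Input. Every IP value lay above every Input value. The mean was 24.3 ± 5.42 CPM in IP and 14.7 ± 1.62 CPM in Input (SD, n = 5), a log2 ratio of 0.71 with a standard error of 0.2 (edgeR, adjusted p = 0.0342). The next largest rise, of ENSMUSG00000025035, rested on 36.3, 30.3, 26, 29.5 and 25.1 CPM in IP, against 21.3, 20.3, 16.5, 18.5 and 15.4 CPM in Input. Here too the groups did not overlap, with a log2 ratio of 0.68 and a standard error of 0.17 (edgeR, adjusted p = 0.0212). Both calls were lost when any 1 mouse was left out, with adjusted p between 0.0558 and 0.161 for the first gene and between 0.0633 and 0.105 for the other in edgeR's test, while the log2 ratios stayed between 0.63 and 0.78 in those fits.

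The largest falls at that level were of another order. ENSMUSG00000064337 stood at 9.19, 1.32, 4.96, 1.91 and 1.62 CPM in IP of cultures 1 to 5, against 282, 212, 172, 162 and 109 CPM in Input. The highest IP value was far below the lowest Input value, and the fitted ratio was 49.6-fold lower in IP (log2 ratio -5.63, standard error 0.21, edgeR adjusted p = 2.89e-15). ENSMUSG00000064345 stood at 18.4, 8.78, 26, 16.2 and 17 CPM in IP, against 491, 366, 360, 311 and 246 CPM in Input. Its ratio was 20.2-fold lower in IP (log2 ratio -4.33, standard error 0.17, edgeR adjusted p = 1.08e-14). Both kept their call in the 13 alternative fits, with log2 ratios of -6.03 to -5.38 for the first and -4.53 to -3.96 for the other.

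**Figure D2:**
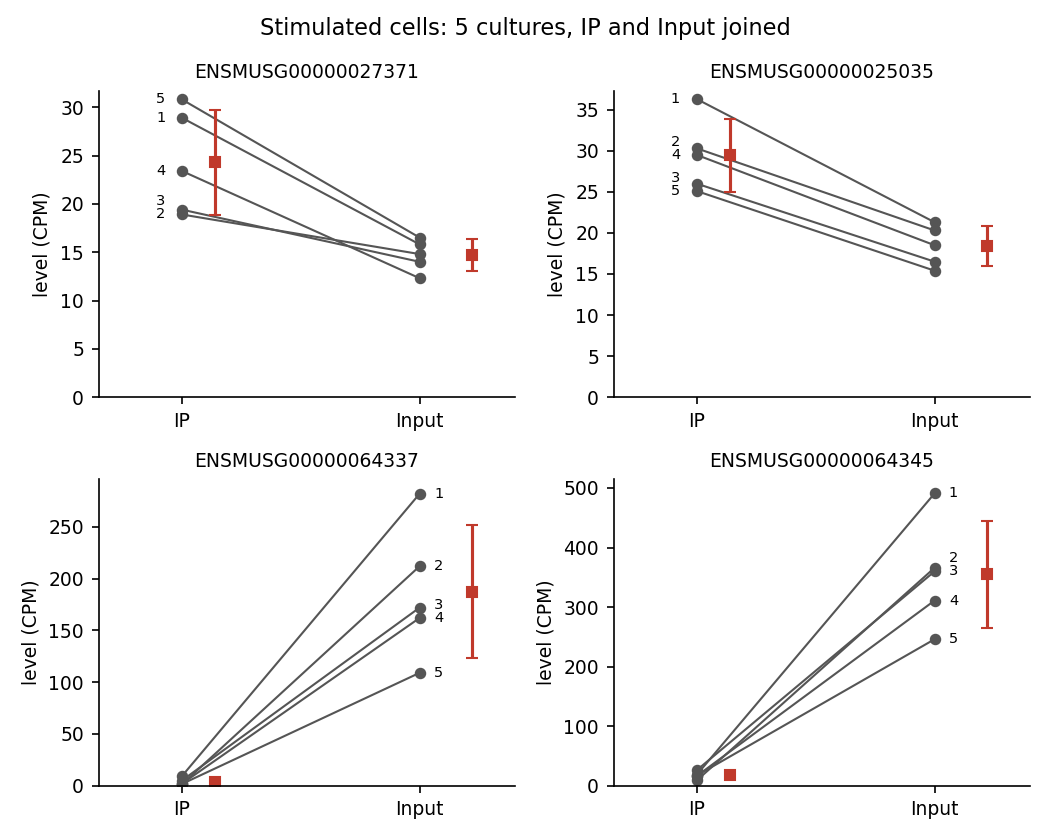
Level (CPM, each vertical axis from 0) of the genes with the largest rises (top) and falls (bottom) in IP and Input, 1 panel a gene; a line joins the IP and Input libraries of 1 culture, digits are culture numbers, and red squares with bars are the mean and SD over 5 cultures. In every panel no IP value overlaps an Input value; the falls are to 17.3 CPM or less on average in IP.

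Both falls belonged to a run of 12 tested genes with neighbouring identifiers, all of which were lower in IP. The run was noticed after the values were seen and is the longest run of falls in identifier order, where the next longest holds 3 genes and the longest run of rises 3. Its identifiers span 36 consecutive numbers, of which the count table lists 35, and 23 of those had too few counts to be tested. A run of identifiers is a description of the list and names no gene. The 9 members at 4 or more on the log2 CPM scale were 7.53-fold to 49.6-fold lower in IP and were the 9 largest falls at that level, followed by a gene at a log2 ratio of -1.93. The other 3 members were at low level, with 2 counts in all 5 IP libraries together and 145 in the 5 Input libraries. Their scaled IP level was 1.31% of that in Input, with an exact 95% interval from 0.157% to 4.83% that covers counting error only.

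Summed over the 12 genes, the level was 446, 176, 381, 321 and 258 CPM in IP of stimulated cultures 1 to 5, against 5530, 4250, 3920, 3430 and 2850 CPM in Input. The run held 0.0311% ± 0.0106 of all counts in IP and 0.402% ± 0.0972 in Input (SD, n = 5). The same 12 genes were lower in IP of the other cultures of these mice, where the same 9 members had log2 ratios of -5.41 to -2.54 with Tregs and -4.9 to -2.28 in rested cells.

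The remaining 371 genes called lower had a median log2 ratio of -0.6. Of these, 20 fell at least 4-fold, all with a mean log2 CPM under 4. These 20 had 193 counts in the 5 IP libraries (28 to 50 per library), against 1823 counts in the 5 Input libraries (239 to 483). Their ratios were also below 0 in the 5 Treg cocultures and the 5 rested cultures for 20 of 20 genes, with medians of -2.48 and -2.84. The counts per gene are few, so each single ratio is uncertain.

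How much of the RNA left behind by the IP still appears in it was followed over cultures in genes chosen on the rested and Treg contrasts. The stimulated libraries took part in the filter and the estimate of spread of the same fit, but not in those contrasts. In the rested cultures and the Treg cocultures, 25 genes were at least 4-fold lower in IP and past the test in both, and 12 of them were the run above, which made up 95.3% to 99.1% of the summed level of the 25 in the RiboTag libraries. The sum is therefore close to that of the run. In stimulated cells 25 of 25 were again at least 4-fold lower, 23 of them past the test. Their summed level in IP was 8.17%, 4.23%, 9.69%, 9.35% and 8.99% of that in Input in stimulated cultures 1 to 5. It was 8.94%, 11%, 11.7%, 8.09% and 15.4% with Tregs and 11.2%, 11.8%, 11.7%, 12.1% and 14.3% in rested cells. The stimulated values were below the rested value of the same mouse in 5 of 5 mice, and the groups did not overlap. They overlapped the values with Tregs. Members of the run did not share this difference alike. The 2 of highest level had log2 ratios of -3.35 and -2.91 in stimulated cells, against -3.29 and -2.94 in rested cells. The 2 members that passed the test of the difference (below) stood at -3.95 and -4.25, against -2.28 and -2.59. The 13 genes outside the run, which held 46.2 to 81.9 CPM in Input of stimulated cultures, did not separate the groups. Their level in IP was 18.7%, 11.4%, 7.67%, 9.3% and 5.82% of Input in stimulated cultures 1 to 5, against 17.5%, 13.1%, 8.33%, 11.3% and 14.1% in rested cultures. Over all 25 genes, the means were 8.09% ± 2.23 in stimulated cells, 11% ± 2.86 with Tregs and 12.2% ± 1.2 in rested cells (SD, n = 5). No p-value is given, since the genes were chosen on the rested and Treg values. Summed Input levels were 2920 to 5580 CPM in stimulated, 3220 to 4700 CPM in Treg and 4100 to 4500 CPM in rested cultures, and the part of differing Input levels in these percentages was not tested.

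**Figure D3:**
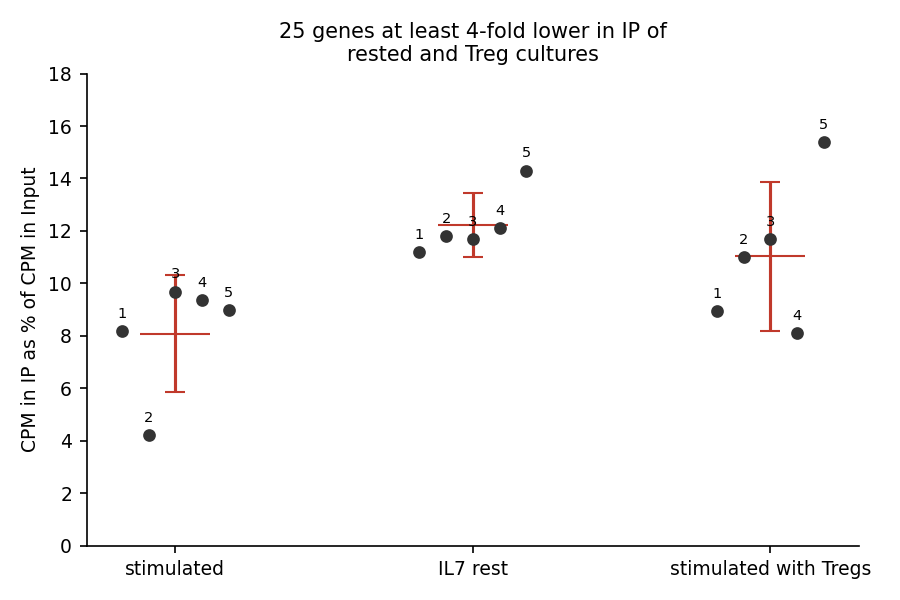
Summed CPM in IP as a percentage of summed CPM in Input (vertical axis) for 25 genes chosen in the rested and Treg cultures; points are cultures with the mouse number beside them, and the red line and bar are the mean and SD of 5. Stimulated cultures lie between 4.23% and 9.69%, all below the rested cultures, and mouse 2 is the lowest; the run of 12 identifiers carries 95.3% to 99.1% of the sums.

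The genes called in stimulated cells mostly lay on the same side in the other cultures, whose libraries entered the fit but not the contrast behind the calls. Of the 466 genes called higher, 458 (98.3%) had a ratio above 0 in Treg cocultures and 444 (95.3%) in rested cells, where 51.2% and 49.6% of all genes tested did. Their median log2 ratio was 0.25 with Tregs and 0.26 in rested cells. Of the 383 genes called lower, 380 (99.2%) had a ratio below 0 with Tregs and 365 (95.3%) in rested cells, against 48.8% and 50.4% of all genes. Their medians were -0.49 and -0.45. Within single cultures the share of the genes called higher that lay above 0 ranged from 86.7% to 97.9% with Tregs and from 84.3% to 92.7% in rested cells. The cultures came from the same 5 mice, so they share animals but no library. Across the 6940 well measured genes, the log2 ratio in stimulated cells correlated with that in Treg cocultures at r = 0.788 and with that in rested cells at 0.57, as a description across genes, which are not independent replicates.

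The difference between stimulated and rested cells was itself tested. The IP over Input ratio was higher in stimulated than in rested cells for 12 genes and lower for 7, which is 0.177% of the 10751 genes tested (edgeR's quasi-likelihood test of the difference, with Benjamini-Hochberg adjustment at 0.05). Without adjustment 1173 genes (10.9%) had a p under 0.05. All 12 genes that were higher had a ratio below 0 in rested cells, with a median log2 ratio of -0.57, and a ratio near 0 in stimulated cells, with a median of 0.11 and a range of -0.25 to 0.29. Only 2 of the 12 were among the genes called in stimulated cells. In Treg cocultures the ratio of these 12 genes lay within 0.25 of that in stimulated cells, with a median of 0.02. Their median over genes, on log2(CPM + 1), was 0.14, 0.04, 0.1, 0.15 and 0.12 in stimulated cultures 1 to 5, against -0.35, -0.69, -0.51, -0.43 and -0.58 in rested cultures; this is a description, since the genes were chosen for it. The 7 genes that were lower included 2 members of the run, at a log2 ratio of -3.95 in stimulated and -2.28 in rested cells for one and -4.25 and -2.59 for the other. The largest difference of the 7 was that of a gene outside the run, at -3.52 in stimulated, -2.35 in Treg and -1.57 in rested cultures. It was of low level, with a mean log2 CPM under 4. Its difference had a standard error of 0.4 (edgeR, adjusted p = 0.0472). In Treg cocultures the ratios of these 7 lay up to 1.16 from those in stimulated cells, with a median of -0.07. Leaving out 1 mouse moved the count to 40, 5, 6, 4 and 7 without mouse 1, 2, 3, 4 and 5.

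Among the 12 genes that were higher, the largest difference was that of a gene with few counts in rested cells. In stimulated cells its level was 40.4, 69.8, 66.5, 83.9 and 57.1 CPM in IP, against 53.4, 68.8, 53.2, 70 and 64.4 CPM in Input, so the groups overlapped. In rested cells it had 2 counts in the 5 IP libraries and 27 in the 5 Input libraries, an IP level of 6.99% of Input with an exact 95% interval from 0.805% to 27.8% that covers counting error only. The next in size among these 12 was better measured. It stood at 265, 290, 235, 269 and 245 CPM in IP of stimulated cultures, against 294, 248, 224, 214 and 205 CPM in Input. In rested cultures it had 12.1, 6.65, 21.4, 21.5 and 11.8 CPM in IP, against 23.2, 14.3, 31.4, 34.4 and 37.5 CPM in Input, lower in IP in each. Its difference between stimulated and rested ratios was 1.08 on the log2 scale with a standard error of 0.19 (edgeR, adjusted p = 0.00951). In stimulated against untreated SPEED Input libraries (below), the log2 change in level was 6.66 for the first of these genes and 4.32 for the other, the only 2 of the 12 at 2-fold or more.

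**Figure D4:**
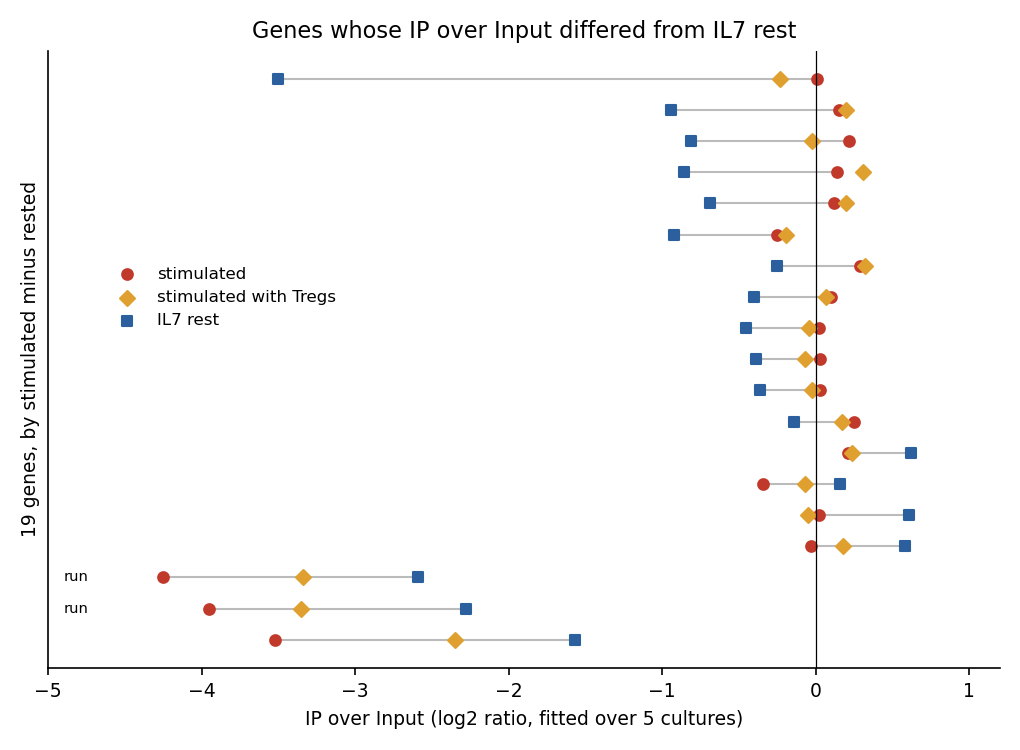
Fitted IP over Input (log2 ratio, 5 cultures a group) in stimulated cells (red circles), stimulated cells with Tregs (orange diamonds) and IL7-rested cells (blue squares) for the 19 genes, 1 per line, whose ratio differed between stimulated and rested cells. The 12 genes at the top are below 0 in rested cells and between -0.25 and 0.29 in stimulated cells; "run" marks 2 members of the run of neighbouring identifiers.

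Between stimulated cells and stimulated cells with Tregs the test of the difference called 0 genes (0% of 10751) in edgeR, where the smallest adjusted p was 0.999, and 0 in DESeq2. At an unadjusted p under 0.05 there were 337 genes (3.13%) in edgeR and 295 (2.74%) in DESeq2, below the 5% that this threshold passes when nothing differs. A count of 0 does not show that the ratios were alike. Counts of the stimulated comparison were simulated on 10751 genes, with the same libraries and dispersions and 200 genes changed per run. Of well measured changes in IP over Input, 97.6% of 2-fold, 77.8% of 1.5-fold and 15.9% of 1.2-fold changes were recovered. The data gave 849 calls in that comparison. With fewer changed genes the adjusted threshold is stricter, so these shares can be lower than those in the data. A difference between 2 IP over Input ratios is measured less precisely than 1 such ratio.

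Ribosome association was also measured by another method in 4 other mice (B6.SJL-PtprcaPepcb/BoyJ), called SPEED in the labels. There, lysates of stimulated cells were parted on sucrose into a polysomal (Pol) and a subpolysomal (SubPol) fraction, with 1566501 to 4025127 gene counts per library. Of 11731 genes tested there, 27.3% favoured Pol over SubPol and 23.6% favoured SubPol (edgeR's quasi-likelihood test with the culture as a block, n = 4 mice). The genes higher in tagged ribosomes of stimulated cells were mostly higher in Pol. Of the 466, 397 (85.2%) passed the test as higher and 12 (2.58%) as lower, and their median log2 ratio of Pol over SubPol was 0.82. Of the 383 genes lower in IP, 223 (58.2%) were lower in Pol and 35 (9.14%) higher, with a median of -0.68. Among all 10649 genes tested in both assays, 29.9% were higher and 24.7% lower in Pol, with a median of 0.06. As a share of the other list, the shared genes were 12.5% of the 3181 higher in Pol and 8.49% of the 2627 lower in Pol. In mice 1 to 4 of that assay the median was 0.66, 0.86, 0.69 and 0.95 for the genes higher in IP and -0.65, -0.73, -0.65 and -0.73 for the genes lower in IP.

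Level is shared between the assays, and abundant genes were more often higher in Pol. At 256 CPM or more, 97.4% of the 156 genes higher in IP were higher in Pol, against 58.8% of the 674 genes without a call in IP. Between 64 and 128 CPM the shares were 76.6% of 94 and 38.5% of 2189. Below 32 CPM only 8 genes were higher in IP, of which 25% were higher and 25% lower in Pol. Of the 3590 genes without a call at that level, 8.8% were higher and 21.8% lower in Pol. Of the genes lower in IP, 57.1% of 105 were lower in Pol between 64 and 128 CPM, against 27.5% of the genes without a call. Ordered the other way, genes at a Pol over SubPol ratio of at most -2 on the log2 scale numbered 171, of which IP calls were lower for 22.2% and higher for none. Above 1 on that scale there were 1197 genes, and the IP call was higher for 12.8% and lower for 0.585% of them, around a median log2 ratio of 0.16. Across 6939 well measured genes the log2 ratios of the assays correlated at r = 0.37, a description across genes.

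The run of 12 identifiers differed in size between the assays. All 12 genes were lower in Pol than in SubPol, but the 9 of higher level had log2 ratios of -1.41 to -0.6, a 1.51-fold to 2.65-fold difference, against -5.63 to -2.91 for IP over Input. For ENSMUSG00000064337 the level was 124, 159, 114 and 185 CPM in Pol of 4 mice, against 351, 368, 334 and 476 CPM in SubPol. The 20 other falls of at least 4-fold had a median log2 ratio of -3.79 in Pol over SubPol, and 17 of 20 were called lower there. The 2 ratios have different denominators, since Input was taken from the whole lysate and SubPol leaves out the polysomal part. The difference between the 2 ratios was not tested. Of the largest rises, ENSMUSG00000027371 was higher in Pol (log2 ratio 0.47, edgeR adjusted p = 0.0462), while ENSMUSG00000025035 did not pass the test (log2 ratio -0.32, edgeR adjusted p = 0.215).

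**Figure D5:**
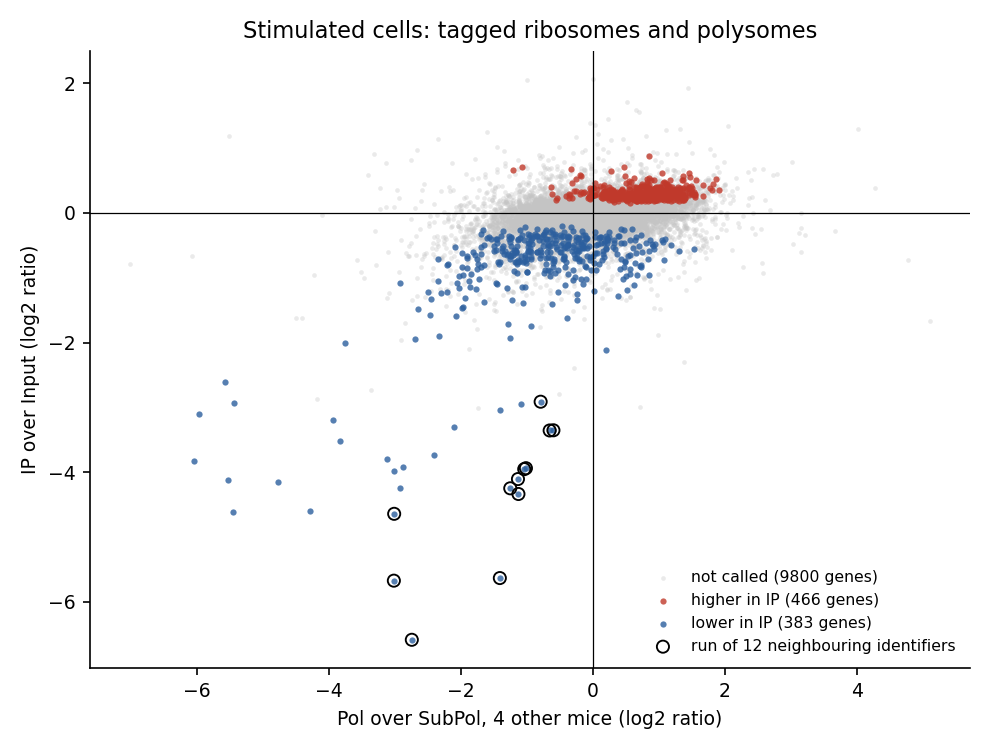
Each point is 1 of the 10649 genes tested in both assays, with Pol over SubPol in stimulated cells of 4 mice (log2 ratio) on the horizontal axis and IP over Input in stimulated cells of 5 other mice (log2 ratio) on the vertical axis. Genes higher in IP (red, 466) lie mostly right of 0, genes lower in IP (blue, 383) mostly left, and the rings (run of 12 identifiers) lie at -0.6 and below on both axes.

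A smaller group went opposite ways. The 35 genes lower in IP and higher in Pol had a median log2 ratio of -0.48 for IP over Input (-0.96 to -0.25) and 0.74 for Pol over SubPol (0.3 to 1.53). They were not of low level, with a median log2 CPM of 6.64. Their IP over Input ratio was below 0 in Treg cocultures for 35 of 35 and in rested cells for 33 of 35. Among all 383 genes called lower these shares were 99.2% and 95.3%, so the counts are not particular to this group. The 12 genes higher in IP and lower in Pol had medians of 0.28 and -0.47. A ratio above 0 was seen with Tregs in 12 of 12 and in rested cells in 11 of 12, against 98.3% and 95.3% of all 466 genes called higher.

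Other SPEED readouts of the called genes were the response to stimulation and to HHT, a 10 min treatment that the labels name only by this abbreviation. In SPEED Input, stimulated over untreated cells, the median log2 change in level was 0.4 for the 466 genes higher in IP, -0.6 for the 372 measured genes lower in IP, and 0.01 for all 10327. The shift of Pol over SubPol with HHT, relative to stimulated cells, had a median of -0.71 for the genes higher in IP and 0.72 for the genes lower in IP, against -0.01 for all genes. That shift uses the same stimulated Pol and SubPol libraries as the ratios above, so it is no separate evidence of their direction.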

How the data were processed

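For each assay the authors deposited raw counts of reads per gene, whole numbers for 53465 Ensembl identifiers. Per the submitters' processing notes the build was GRCm38, with HTSeq 0.4.1, Picard 1.134, FastQC 0.11.3 and SAMtools 1.2. The aligner, and whether duplicate reads were removed, is not given in the sources used here. Libraries were made with SMART-Seq v4 and NexteraXT, per the labels' protocols, which keep no strand: reads of a gene and of an antisense gene over it are not separated. The RiboTag file has 16 more columns that fit no label, left unused here.

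Tests used edgeR 4.0.16 under R 4.3.3 (filterByExpr with a minimum count of 10 and a minimum total of 15, TMM, robust quasi-likelihood fit). All 30 RiboTag libraries entered 1 fit with the 15 cultures as a block and an IP effect per condition (common biological coefficient of variation 0.121, 12 residual degrees of freedom). SPEED Pol and SubPol libraries were fitted alike. P-values are two-sided, adjusted by Benjamini-Hochberg. Standard errors are the log2 ratio over the square root of F. IP and Input of 1 number came from 1 culture: their deviations from the group means correlated at 0.374 to 0.505. The mean of -0.105 between cultures is no separate comparison, since deviations from a group mean cancel out over the group. Libraries of a group differed by more than counting noise (chi-square per degree of freedom 2.59 or more), so none was counted as a copy. On simulated counts 4.22% of calls were false.

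Identifiers paired with a symbol in the reference table numbered 0, so planned gene lists, cell type markers, the tagged gene, gene properties and sequences were not used. Named genes, planned as 12 a direction, were kept to the 2 largest rises and 2 largest falls past the test, averaging 4 or more in log2 CPM and of 1 sign in 5 cultures. The comparison, lists and alternatives were chosen with earlier results of these data known.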

Additional observations from a re-analysis of the deposited data

Results flagged for a closer look

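The IP over Input ratio of 19 genes differed between stimulated and IL7-rested cells by the test of the difference, 12 higher and 7 lower in stimulated cells. Among the 25 genes that were at least 4-fold lower in IP of rested and Treg cultures, the level left in IP was 4.23% of Input in the stimulated culture of mouse 2, far from the other 4 stimulated cultures at 8.17% to 9.69%. Without mouse 2 the stimulated values remain below the rested ones. The run of 12 neighbouring identifiers carries 95.3% to 99.1% of these sums, and alone gives 4.15% in mouse 2. In rested cells the level of the 25 genes was 14.3% in mouse 5, far from the other 4 rested cultures at 11.2% to 12.1%. These were the samples that stood out among 23 groups of values checked, of which chance flags about 5%.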

How the results depend on the processing

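With the culture block the comparison of IP with Input in stimulated cells gave 849 calls (466 higher, 383 lower). No replicate block left 105 (22 and 83), and 3 against IL7 rest. A replicate block by mouse number in place of culture left 250 (92 and 158). With stimulated libraries only, 685 genes were lower. No filter on low counts gave 209 higher, 100 calls against rest and 3 against Treg cocultures, and a mean of at least 50 counts gave 309 higher. DESeq2 gave 37 calls against rest. Without 1 replicate the calls ranged from 191 to 507 (41 to 193 higher, 150 to 314 lower), against rest from 4 to 40, against Treg cocultures 0 in each, and in Pol over SubPol from 4863 to 5743, where 5969 were called with all mice. Mice 3 to 5 alone, an alternative added after the data were seen, gave 90 (7 and 83), and 41 against rest. Pol over Input gave 1362 calls in place of Pol over SubPol. The cause of these differences was not tested. Fits without mice also rest on fewer samples. No direction of the 4 named genes reversed, but ENSMUSG00000027371 lost its call in 10 of 12 alternatives and ENSMUSG00000025035 in 8 of 13. Besides fits without mice, these were no replicate block (adjusted p = 0.287 and 0.0738 in edgeR) and no filter (0.0875 and 0.0808), and for the first also the block by mouse number (0.15) and DESeq2 (0.0511). In simulated counts with 200 genes changed per run, 15.9% of well measured 1.2-fold changes were recovered. The genes called higher had a median 1.22-fold difference. That share is not matched to them in level: it covers all well measured genes, while their median log2 CPM was 7.65. The 2 named rises were larger, at 1.64-fold and 1.6-fold, and of lower level than the genes called well measured. Why their calls were lost was not tested.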
